A study of Macaca mulatta with 252 samples.

Results

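The anterior cingulate gyrus (ACG) and the dorsolateral prefrontal cortex (DLPFC, Brodmann area 46) of adult rhesus macaques were compared, layer by layer and over the mean of layers 2, 3, 5 and 6. The arrays were chosen by their labels. All arrays of those 4 layers in either area were used, which gave 32 of the 252 arrays of the series, of which 225 held experimental tissue. The 4 arrays of layer 4 of DLPFC were not used, since no ACG array carries that label. ACG had 16 arrays from male 018G, male 01D150, female 98C096 and female 99C018. DLPFC had 16 arrays from male 01D150, female 98C096, female 99C018 and male CR5C1. Each animal gave 1 array per area and layer, and the labels name no treatment and no genotype. RNA from pieces cut out by laser capture was amplified and hybridised to GeneChip arrays, so each array is a mixture of the neurons, glia and vessels of 1 layer.

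ACG is limbic cortex, in which layer 4 is thin or absent, whereas area 46 is granular association cortex with a clear layer 4. Pyramidal neurons fill the 4 layers compared here: those of layers 2 and 3 project mainly to other cortical areas, those of layer 5 also to targets below the cortex, and those of layer 6 largely to the thalamus. In primates, parvalbumin interneurons and the myelinated fibres of the grey matter are known to be sparser in limbic cortex than in granular cortex.

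Values are log2 intensities of 1 probe set per gene, so the level of one gene says nothing about the level of another. A gene was called when limma's moderated test, with the animal as a block, gave a Benjamini-Hochberg adjusted p under 0.05 over 10238 genes and a log2 difference of at least 1. Differences are ACG minus DLPFC, with limma's moderated standard error after ±. In the mean of 4 layers it rests on 2 residual degrees of freedom and 9.64 prior ones drawn from all genes. It can therefore differ from the spread of a gene's own paired differences. The 3 animals with both areas carry the paired comparison, and this number of animals limits its precision. Layer labels were checked with CUX2, a homeobox gene of upper layers, which averaged 9.58 in layer 2 and 3.88 in layer 6 of ACG, against 9.85 and 3.69 in DLPFC. FEZF2, a transcription factor of deep projection neurons, averaged 9.61 in layer 5 and 5.97 in layer 3 of ACG, against 9.72 and 5.49 in DLPFC. Layer 5 of DLPFC in female 99C018 stood apart for CUX2, at 6.78 against 4.58 to 4.78 in the other 3 animals. Each array was correlated with its group mean, and the median of these 32 correlations was 0.982. The lowest values were 0.942 for DLPFC layer 2 of male 01D150 and 0.951 for DLPFC layer 6 of female 98C096.

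The areas also differed in measures of processing. The cre hybridisation controls, transcripts added before hybridisation, had an SD of 0.0629 over the ACG arrays and 0.226 over the DLPFC arrays. By this spread ACG fell in a narrow set with the primary auditory (A1), motor (M1), somatosensory (S1) and visual (V1) areas and temporal area TE. DLPFC fell in a wide set with the middle temporal area (MT), the orbitofrontal cortex (OFC) and V2. The labels name amplification batches without tying tissue arrays to them, so a batch of this kind and the area cannot be told apart within the 32 arrays. The poly-A controls, added to the RNA before amplification, averaged 9.26 ± 0.38 in ACG and 8.78 ± 0.39 in DLPFC (SD over 16 arrays each).

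Averaged over the 4 layers, ACG differed from DLPFC in 69 called genes. Of these, 46 were higher in ACG, 0.449% of the genes tested, and 23 were lower, 0.225%. The largest increases were in the water channel AQP1, the calmodulin-like protein CALML4, the actin-nucleating formin DIAPH3 and the membrane-bound carbonic anhydrase CA12, each about 4-fold. The largest decreases were in the Golgi-associated kinase GASK1B and in PVALB, the calcium-binding protein of fast-spiking interneurons. At the adjusted p alone, 652 genes were higher and 317 lower, and the median difference over all genes tested was 0.04. Leaving out the 2 DLPFC arrays of lowest correlation and their ACG counterparts, which was added once the data had been seen, gave 40 higher and 28 lower. With the poly-A level as a covariate, added likewise, 8 were higher and 1 lower at 1 residual degree of freedom, and CALML4, DIAPH3, CA12, CCN3 and SERPINF1 were among those called. AQP1 (1.135), GASK1B (-1.01), PVALB (-1.69), CD24 (0.70), LTB (-0.56), MBP (-0.45) and BHLHE22 (0.08) were among those that lost their call. FOXO6 (1.835), GRP (1.841) and RADX (1.906) lost theirs as well, with limma adjusted p of 0.0973, 0.0973 and 0.0811. Of 61 values for named genes with this covariate, in the mean and by layer, 35 kept direction and call, 23 lost the call and 3 reversed. The 35 include RBP4 in the mean, which was not called there to begin with.

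CALML4 had mean levels of 7.53, 6.96, 7.79 and 6.77 in ACG of 01D150, 98C096, 99C018 and 018G, against 5.33, 4.83, 5.80 and 5.39 in DLPFC of 01D150, 98C096, 99C018 and CR5C1. Every ACG value lay above every DLPFC value, and the difference was 2.10 ± 0.12 (4.30-fold, limma adjusted p = 9.11e-06). DIAPH3 had 8.33, 8.64, 8.49 and 8.28 in ACG of the same animals, against 5.97, 6.56, 6.65 and 5.53 in DLPFC. The ACG animals lay close together for DIAPH3, while the DLPFC animals spread more widely without reaching them. The difference was 2.09 ± 0.13 (limma adjusted p = 1.48e-05). AQP1 had 9.08, 8.84, 9.34 and 9.13 in ACG, against 6.69, 7.25, 6.98 and 7.27 in DLPFC, a difference of 2.12 ± 0.16. CA12 had 7.34, 7.54, 7.10 and 7.82 in ACG, against 5.82, 5.08, 4.89 and 5.64 in DLPFC, a difference of 2.06 ± 0.16. Neither gene's groups overlapped, and 3 of the 4 CA12 probe sets had the same sign.

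A second group of increases lay between 2.6-fold and 3.3-fold. FOXO6, a forkhead transcription factor of the brain, averaged 8.39 ± 0.29 in ACG and 6.89 ± 0.65 in DLPFC (SD, n = 4 each), with the DLPFC value of CR5C1 the highest of its area at 7.76. The paired difference of FOXO6 was 1.72 ± 0.12. CD24, a small glycoprotein anchored in the cell surface, averaged 8.10 ± 0.41 in ACG and 6.47 ± 0.54 in DLPFC, a difference of 1.71 ± 0.17. It lost its call when all its probe sets were averaged (0.99). The gastrin-releasing peptide gene GRP differed by 1.60 ± 0.12, and RADX, which binds single-stranded DNA, by 1.56 ± 0.12. RADX had the least spread of these in ACG, at 8.51 to 8.70, against 6.83 to 7.35 in DLPFC. The matricellular protein CCN3 rose by 1.52 ± 0.13 and SOSTDC1, a secreted antagonist of BMP and Wnt signals, by 1.40 ± 0.16. TCEAL4 was 2.82-fold higher (SE 0.28 on the log2 scale), but its DLPFC levels split into 8.89 and 9.33 in 01D150 and 98C096, and 10.94 and 10.82 in 99C018 and CR5C1. The lowest ACG value of TCEAL4, in 98C096, was also 10.94. Without 01D150 its difference was 0.997 and it was no longer called, and averaging its 4 probe sets gave 0.40 and no call.

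**Figure D1:**
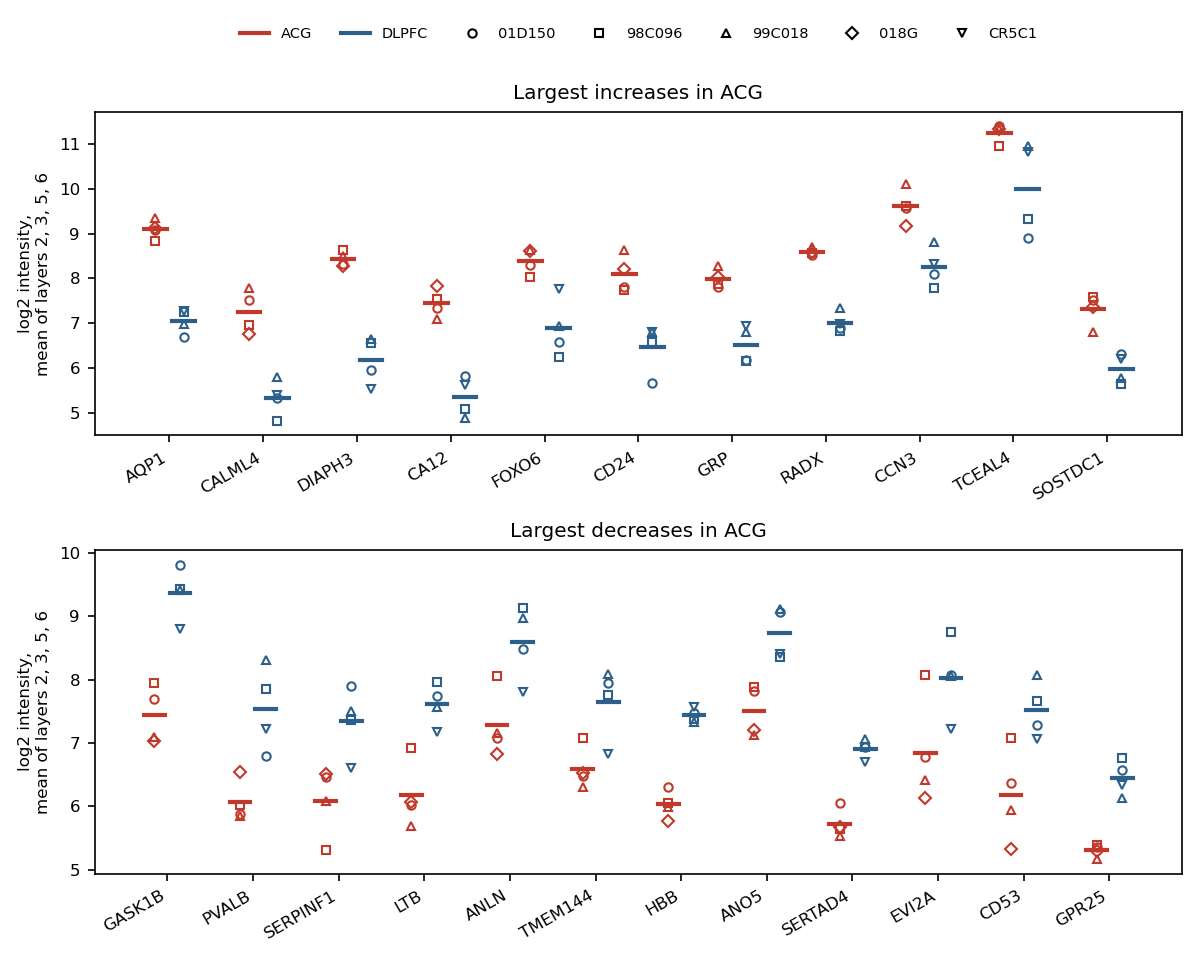
Level of genes with the largest changes, as the log2 intensity averaged over layers 2, 3, 5 and 6 (vertical axis), with 1 marker per animal, ACG left in red and DLPFC right in blue, and bars at the means of 4 animals. The groups of the increases shown are apart except those of TCEAL4, which meet at 10.94, CALML4 lying at 6.77 or above in ACG and at 5.80 or below in DLPFC, while ANLN, TMEM144, EVI2A and CD53 overlap among the decreases.

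Among the decreases, PVALB had 5.88, 6.03, 5.84 and 6.54 in ACG of 01D150, 98C096, 99C018 and 018G, against 6.80, 7.85, 8.31 and 7.22 in DLPFC of 01D150, 98C096, 99C018 and CR5C1. The groups did not overlap, with 018G the highest in ACG and 01D150 the lowest in DLPFC, and the difference was -1.74 ± 0.22 (limma adjusted p = 0.00101). GASK1B had 7.69, 7.96, 7.10 and 7.04 in ACG, against 9.82, 9.44, 9.42 and 8.80 in DLPFC, a difference of -1.98 ± 0.16 (3.93-fold). Only 1 of its 2 probe sets had that sign, and their average differed by -0.96. SERPINF1, the secreted pigment epithelium-derived factor, averaged 6.09 ± 0.56 in ACG and 7.34 ± 0.54 in DLPFC (SD, n = 4 each). Its paired difference, which rests on the 3 animals with both areas, was -1.64 ± 0.15. The animals with 1 area had close levels, 6.51 in ACG of 018G and 6.61 in DLPFC of CR5C1. LTB, the lymphotoxin beta gene of the tumour necrosis factor family, fell by 1.55 on the log2 scale, and SERTAD4 by 1.24. The anoctamin ANO5 had 7.82, 7.88, 7.12 and 7.20 in ACG, against 9.07, 8.36, 9.11 and 8.40 in DLPFC. Its difference was -1.24 ± 0.21, and without 99C018 it was -0.87 and no longer called. TMEM144 differed by -1.31 ± 0.18 and EVI2A by -1.21 ± 0.16, the call of EVI2A being lost without 99C018 (-0.99). Averaging all probe sets of a gene ended the calls of TMEM144 (-0.37, limma adjusted p = 0.0943) and SERTAD4 (-0.64).

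MBP, the myelin basic protein gene, fell in ACG. It had 10.25, 11.09, 10.18 and 10.18 in ACG of 01D150, 98C096, 99C018 and 018G, against 11.36, 11.85, 11.51 and 10.77 in DLPFC of 01D150, 98C096, 99C018 and CR5C1. In each of the 3 paired animals ACG was lower, although the ACG value of 98C096 exceeded the DLPFC value of CR5C1, and the difference was -1.07 ± 0.13. Of 6 tested myelin and oligodendrocyte genes, MBP was called lower and none higher. UGT8, which makes galactolipids of myelin, differed by -0.89, the gap junction gene GJB1 by -0.87 and the proteolipid gene MAL by -0.70, each past the adjusted p alone. The median of the list was -0.79, against 0.04 over all genes, and 5 of the 6 differences were negative. Averaged over the 6 genes, the level was 7.86 to 8.57 in the 4 ACG animals and 8.42 to 8.89 in the 4 DLPFC animals, so the groups overlapped. The part of these cells in the other differences was not tested. ANLN, an actin-binding scaffold protein that is also found in myelin, was called at -1.43 ± 0.15, but the average of its 4 probe sets was -0.52 and not called. Without 99C018, MBP differed by -0.94 and was not called, nor was it without the pairing by animal (-0.95). In bulk tissue, fewer cells of a type and less RNA per cell cannot be told apart.

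Among 8 tested fast-spiking neuron genes, PVALB was called lower and none higher. The sodium channel gene SCN1A differed by -0.97 and the potassium channel gene KCNA2 by -0.55, both past the adjusted p alone. The list median was -0.31, with 7 differences negative and 1 positive. Of 8 other inhibitory neuron genes, none was called, with a median of -0.10. They went both ways, with 1 higher in ACG and 2 lower at the adjusted p alone. None of 5 perineuronal net genes was called, with a median of -0.13. At an unadjusted limma p under 0.05 the other inhibitory and perineuronal net lists held 5 and 4 genes. Over all 10238 genes tested 2739 passed it, the share to set beside this and the later list counts. None of 6 astrocyte genes or 5 endothelial genes was called, with 2 and 0 at the unadjusted p, and their medians were -0.07 and 0.17. None of 3 large axon genes was called (2 at the unadjusted p, median -0.39). Of 8 microglia genes, CD53, a tetraspanin of leukocytes and microglia, was called lower at -1.21 ± 0.23, while the list median was 0.13 and 6 of the 8 genes had positive differences. The CD53 levels were 6.38, 7.08, 5.95 and 5.33 in ACG of 01D150, 98C096, 99C018 and 018G, against 7.29, 7.67, 8.07 and 7.06 in DLPFC of 01D150, 98C096, 99C018 and CR5C1. The groups met at 98C096 in ACG and CR5C1 in DLPFC, and without 99C018 the difference was -0.75 and the call was lost, as it was when its probe sets were averaged (-0.53).

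Of 5 excitatory neuron genes 1 was called higher, BHLHE22, a basic helix-loop-helix transcription factor of projection neurons, with a 2.50-fold change (SE 0.19 on the log2 scale). Without 99C018 its difference was 1.25 and no longer called (limma adjusted p = 0.0628), and averaging its 2 probe sets gave 0.86 and no call. NEUROD6, of the same protein family, differed by 0.69, and the vesicular glutamate transporter gene SLC17A7 by 0.52, both past the adjusted p alone. The list median was 0.52. Of 9 layer 5 and projection neuron genes, GRP was called higher, 5 passed the adjusted p alone in that direction, and the median was 0.56. None was called among 9 upper layer, 9 layer 6 and 3 layer 4 neuron genes, with medians of 0.09, 0.18 and -0.09 and with 2, 4 and 1 genes at an unadjusted limma p under 0.05. The poly-A controls and the control sets moved with the area as described, and their part in these shifts was not tested for each list.

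The 3 association cortex genes were all higher in ACG at the adjusted p alone, without reaching a difference of 1. RBP4, which carries retinol, had 10.43, 10.05, 10.73 and 10.36 in ACG of 01D150, 98C096, 99C018 and 018G, against 9.56, 9.06, 9.89 and 10.13 in DLPFC of 01D150, 98C096, 99C018 and CR5C1. The groups overlapped between 98C096 in ACG and CR5C1 in DLPFC, and the paired difference was 0.90 ± 0.12 (limma adjusted p = 0.00129). Over 17 alternative settings the RBP4 difference lay between 0.73 and 1.07, and its limma adjusted p reached 0.72. PNMA5 differed by 1.00 ± 0.12 (0.998 before rounding, so under the threshold), and SLIT1, a secreted axon guidance ligand, by 0.71 ± 0.15. Of 12 retinoid pathway genes none was called in the mean (3 at an unadjusted limma p under 0.05, median 0.05), and the retinoic acid receptor gene RARB stood lowest at -0.91.

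Signalling and adhesion lists held few called genes. Among 22 axon guidance genes, EFNB3, a membrane-bound ephrin ligand, was called 2.12-fold higher (SE 0.12 on the log2 scale), with 9.93, 9.64, 10.06 and 9.89 in ACG of 01D150, 98C096, 99C018 and 018G. The DLPFC levels of EFNB3 were 8.91, 8.39, 9.09 and 9.11 in 01D150, 98C096, 99C018 and CR5C1, all below the ACG levels. Without 98C096 the EFNB3 difference was 0.999, just under the threshold, and averaging its 2 probe sets gave 0.57 and no call. The list median was 0.13. Among 16 monoamine and acetylcholine receptors, the serotonin receptor gene HTR7 was called higher at 1.09 ± 0.19, and HTR2A differed by 0.81, with a list median of 0.02. The HTR7 call was lost without 01D150 (0.82) and without 99C018 (1.01, limma adjusted p = 0.0855). Other probe sets of HTR7, not used here, differed by 0.03, -0.08 and 0.30. None of 15 cadherins and protocadherins was called (8 at an unadjusted limma p under 0.05, median 0.23), although CDH4, PCDH8 and CDH13 differed by 0.97, 0.92 and 0.88. The patterning transcription factors had FOXO6 and BHLHE22 called higher of 20 tested, with a median of -0.07. Among 14 calmodulin-like and calcium-binding genes CALML4 was called higher and PVALB lower, with a median of -0.13. None of 13 peptide and cannabinoid receptors, 5 GABA-A receptor subunits, 5 glutamate receptor subunits, 32 potassium channel subunits, 13 respiratory chain genes or 14 activity-regulated genes was called. Their medians lay between -0.11 and 0.12, and 4, 3, 1, 11, 1 and 6 of them, in that order, had an unadjusted limma p under 0.05. Of all 10238 genes tested, 2739 did.

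**Figure D2:**
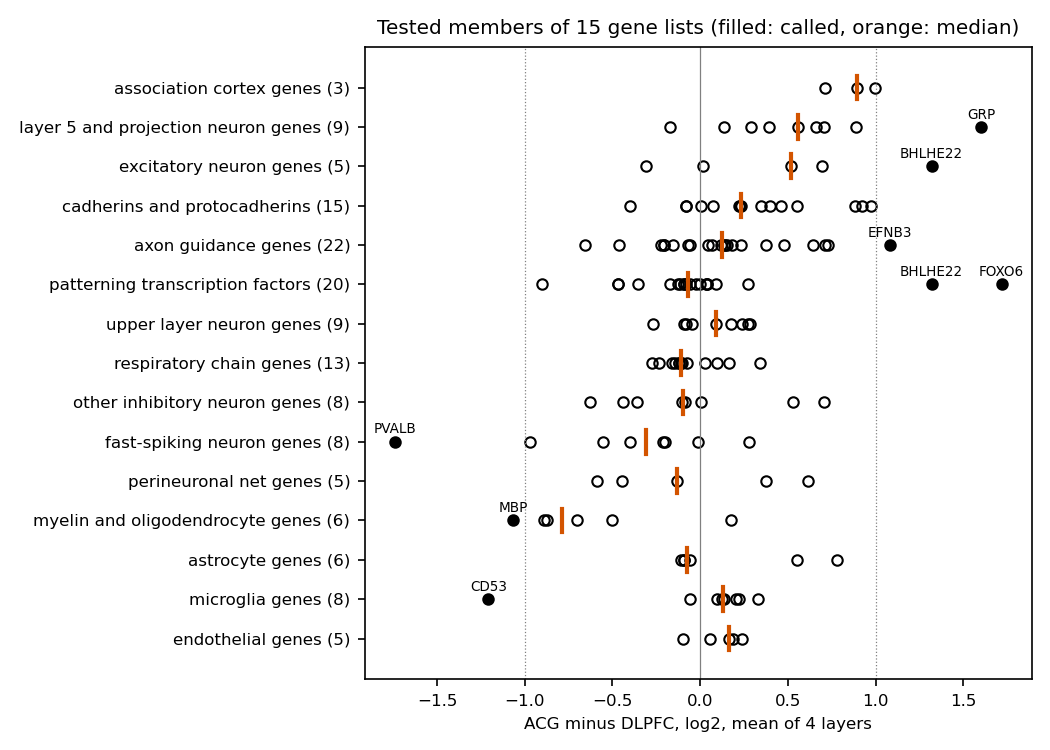
Difference of each tested member of 15 gene lists, ACG minus DLPFC in log2 over the mean of 4 layers (horizontal axis), with 1 circle per gene, filled where called, orange bars at list medians, dotted lines at -1 and 1 and the number tested in brackets. The myelin and oligodendrocyte median lies at -0.79 and the association cortex median at 0.90, while most members of the other lists lie inside the dotted lines.

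By layer, the counts of called genes depended on the model. In layer 2, 97 genes were higher in ACG (0.947%) and 40 lower (0.391%). In layer 3, 66 were higher (0.645%) and 31 lower (0.303%). Layer 5 had 43 higher (0.42%) and 22 lower (0.215%), and layer 6 had 71 higher (0.693%) and 22 lower (0.215%). A separate fit per layer called 27 genes in layer 2, 112 in layer 3, 62 in layer 5 and 0 in layer 6. The order of the layers changed with it. In that fit of layer 6, limma's unadjusted p was under 0.05 for 745 of 10238 genes. These layer counts were not tested against each other, and that of layer 2 also depended on single animals, with 66 genes without 01D150 and 263 without 99C018. Layer 5 had 31 without 99C018. Without the 2 arrays of lowest correlation and their ACG counterparts, layer 2 had 89 and layer 6 had 159. Over the 4 layers, 261 genes were called in at least 1 layer, and none was called in opposite directions in different layers. Increases were called in 1 layer for 115 genes, in 2 for 45, in 3 for 12 and in all 4 for 9. Decreases were called in 1 layer for 58 genes, in 2 for 13, in 3 for 5 and in all 4 for 4. These 13 genes were also called in the mean, among them AQP1, CA12, CALML4, CCN3, CD24, DIAPH3, FOXO6 and RADX as increases and GPR25, LTB and SERTAD4 as decreases.

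**Figure D3:**
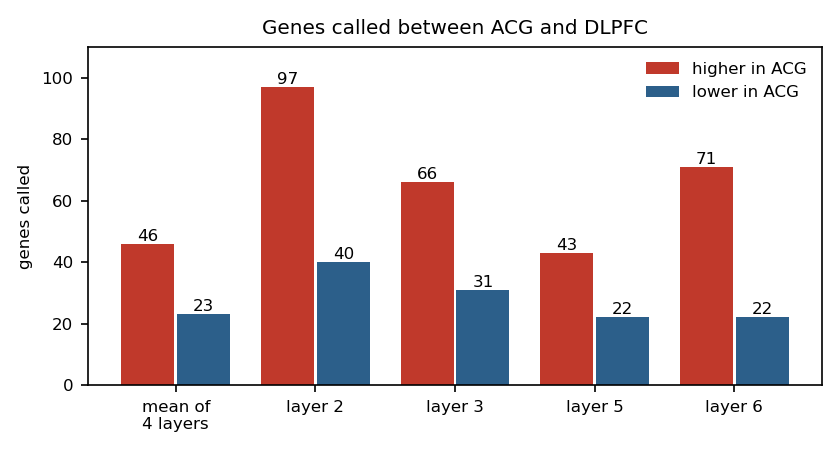
Number of genes called between ACG and DLPFC (vertical axis) in the mean of 4 layers and in each layer, red for genes higher in ACG and blue for genes lower in ACG. In each layer more genes are called higher than lower, from 43 against 22 in layer 5 to 97 against 40 in layer 2.

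In layer 2, CA12, AQP1 and CALML4 rose by 2.65, 2.57 and 2.54, and HACD4, an enzyme of very long chain fatty acid synthesis, by 2.47 ± 0.33. HACD4 had 6.10, 6.96, 6.55 and 6.59 in layer 2 of ACG of 01D150, 98C096, 99C018 and 018G, against 3.90, 4.24 and 4.05 in DLPFC of 01D150, 98C096 and 99C018 and the highest value there, 4.503, in CR5C1. All ACG values of HACD4 lay above 6 and all DLPFC values below 5 there. The decreases were led by GASK1B (-2.90), PVALB (-2.21), TMEM144 (-1.77) and SERPINF1 (-1.69). TMEM144, a transmembrane protein gene, had only 2 of 4 probe sets of the same sign. Of the excitatory neuron genes, 3 of 5 were called higher in layer 2, BHLHE22 (1.18), NEUROD6 (1.53) and SLC17A7 (1.02), the list median being 1.02 against 0.10 over all genes in that layer. The SERPINF1 call was lost without either 01D150 (-1.41) or 98C096 (-1.45), and likewise the TMEM144 call (-1.82 and -1.60). Averaging the TMEM144 probe sets gave -0.30 and no call, and a separate fit of layer 2 did not call PVALB (-1.82, limma adjusted p = 0.0685) or SERPINF1 (-1.85).

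In layer 3, DIAPH3 rose by 2.87 ± 0.25, CALML4 by 2.66 ± 0.21, SOSTDC1 by 2.63 ± 0.48 and CA12 by 2.60 ± 0.37. SOSTDC1 had 7.79, 6.96, 7.04 and 7.46 there in ACG of 01D150, 98C096, 99C018 and 018G, against 4.94, 5.15, 4.89 and 3.99 in DLPFC of 01D150, 98C096, 99C018 and CR5C1. The groups were far apart for SOSTDC1 in layer 3, and it was not called in the other 3 layers. The decreases in layer 3 were SERPINF1 (-2.73), CD53 (-2.36), the methyltransferase gene BHMT (-2.21) and ANO5 (-2.03). BHMT lost its call without 98C096 (-1.92, limma adjusted p = 0.0576).

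In layer 5, DIAPH3 and CALML4 rose by 2.26 and 2.19, FZD7, a Wnt receptor, by 2.06 ± 0.27, and CCN3 by 1.99 ± 0.28. The decreases were ANO5 (-2.72), the ephrin receptor EPHA3 (-2.42), GASK1B (-2.23) and PVALB (-1.86). RBP4 was called in layers 5 and 6, at 1.57 ± 0.19 and 1.01 ± 0.19. In layer 5, RBP4 had 10.39, 9.70, 10.56 and 10.47 in ACG of 01D150, 98C096, 99C018 and 018G, against 8.85, 7.81, 9.15 and 9.68 in DLPFC of 01D150, 98C096, 99C018 and CR5C1. The groups nearly met, between 98C096 in ACG and CR5C1 in DLPFC, and 98C096 had the lowest value in both areas. PNMA5 was called in the same layers, at 1.25 and 1.12. Without 99C018, GASK1B (-1.80) and PVALB (-1.46) were not called in layer 5, and GASK1B was also not called in a separate fit of that layer (-1.89).

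In layer 6, the increases were BHLHE22 (2.72 ± 0.28), CD24 (2.11 ± 0.35), AQP1 (1.86 ± 0.35) and TCEAL4 (1.77 ± 0.51). The decreases were the zinc finger gene ZNF471 (-1.47 ± 0.39), FAM110D (-1.33 ± 0.32), SERTAD4 (-1.30 ± 0.28) and LTB (-1.30 ± 0.24). ZNF471 and TCEAL4 had adjusted p of 0.0317 and 0.0495 in limma's fit, close to the threshold. Only 1 of 5 ZNF471 probe sets had the same sign as the one used. The calls of TCEAL4 were lost without any of 018G (1.75), 01D150 (1.19), 98C096 (1.53) and CR5C1 (1.83). ZNF471 was not called without 018G (-1.48), 98C096 (-1.48) or CR5C1 (-1.39), FAM110D without 018G (-1.19), 98C096 (-1.06) or 99C018 (-1.20), and SERTAD4 without 98C096 (-1.13). In a separate fit of layer 6 alone none of these 8 genes was called, with BHLHE22, CD24, AQP1 and LTB at 2.75, 1.92, 1.82 and -1.38 (limma adjusted p = 0.394 for each). Averaging all probe sets ended the calls of TCEAL4 (0.46), ZNF471 (-0.27) and SERTAD4 (-0.49). PVALB was not called lower in layer 6.

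The difference between the areas varied among the layers in 21 genes, 0.205% of those tested, by limma's moderated F over the area-by-layer terms at an adjusted p under 0.05 and a range of at least 1. These 21 genes include CALML4, which was high in layers 2, 3 and 5 of ACG (7.62 ± 0.38, 7.82 ± 0.44 and 7.47 ± 0.53, SD, n = 4) and lower in layer 6 (6.13 ± 0.67). In DLPFC, CALML4 stayed between 5.26 and 5.46 in all 4 layers. The count was sensitive to the animals, at 5 genes without 018G, 10 without CR5C1 and 0 without 01D150 or 99C018. In the last 2 settings limma's unadjusted p was under 0.05 for 489 of 10227 and 391 of 10255 genes, a share under 0.05 in each. Without the 2 arrays of lowest correlation and their ACG counterparts it was 32. GRP lost its call as varying whichever of the 5 animals was left out (ranges of 2.03 to 2.72). DACH1, EPHA3 and RTP2 kept theirs when CR5C1 was left out and lost it with each of the other 4 animals left out, at ranges of 2.32 to 3.08, 2.27 to 2.59 and 1.27 to 2.06. TPBG was also not called without 98C096 (2.17).

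ANO5 had the widest range, 2.79. In layer 5 it had 6.73, 7.41, 5.51 and 5.44 in ACG of 01D150, 98C096, 99C018 and 018G, against 9.57, 8.26, 9.43 and 8.68 in DLPFC of 01D150, 98C096, 99C018 and CR5C1. In layer 2 it averaged 9.05 ± 0.45 in ACG and 8.98 ± 0.22 in DLPFC, so that the areas were apart in layers 3 and 5 and overlapped in layers 2 and 6. EPHA3 fell to 5.96, 6.52, 5.91 and 5.04 in layer 5 of ACG, against 7.87, 9.76, 8.39 and 6.91 in DLPFC, while in layer 3 the means were 8.38 in ACG and 8.25 in DLPFC. TPBG, a membrane glycoprotein gene, showed the same layer, with 4.96 ± 0.43 in layer 5 of ACG and 6.78 ± 0.24 in DLPFC. In ACG both EPHA3 and TPBG were high in layers 2 and 3 and low in layers 5 and 6, whereas in DLPFC layer 5 was closer to layer 3 than to layer 6.

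WFDC1, a secreted protein of the protease inhibitor family, averaged 9.21, 8.81 and 7.84 in layers 2, 3 and 5 of ACG, against 8.55, 6.27 and 6.07 in DLPFC. In DLPFC it was high in layer 2 alone, while in ACG it was also high in layer 3, with differences of 2.46 ± 0.23 in layer 3 and 1.69 ± 0.23 in layer 5. DACH1, a transcriptional cofactor, differed in layer 3 by 1.99 ± 0.32 and in the mean by 0.20. Its layer 3 levels were 8.03, 8.23, 7.80 and 8.44 in ACG of 01D150, 98C096, 99C018 and 018G, against 5.05, 5.94, 6.55 and 7.48 in DLPFC of 01D150, 98C096, 99C018 and CR5C1. The DLPFC animals were spread over more than 2 log2 units for DACH1, all of them below ACG.

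GRP, the precursor of a neuropeptide, averaged 8.07 ± 0.37 in layer 3 of ACG and 5.61 ± 0.40 in DLPFC, but 8.02 ± 0.08 in layer 5 of ACG and 7.97 ± 0.55 in DLPFC. The areas overlapped for GRP in layer 5 and were called apart in layers 2, 3 and 6. BHLHE22 had 8.58, 7.08, 8.59 and 8.01 in layer 6 of ACG of 01D150, 98C096, 99C018 and 018G, against 4.47, 5.51, 6.02 and 5.14 in DLPFC of 01D150, 98C096, 99C018 and CR5C1. In layer 3 the difference of BHLHE22 was 0.54 ± 0.28 and was not called. RTP2, a receptor transporter known from olfactory neurons, differed by 1.86 in layer 2 and 0.09 in layer 6. When all probe sets of a gene were averaged, BHLHE22 had a range of 0.77 and EPHA3 of 1.13, and neither was called as varying.

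**Figure D4:**
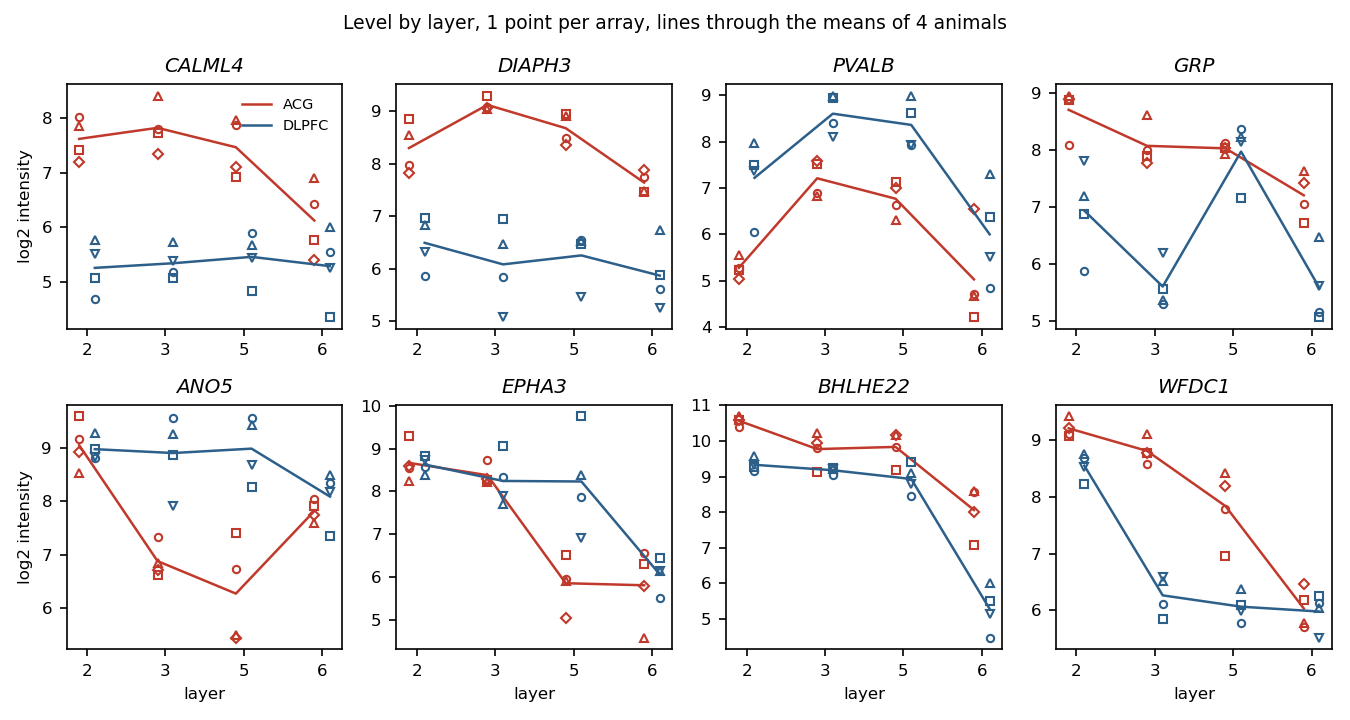
Level of 8 genes by layer (log2 intensity on the vertical axes, layers 2, 3, 5 and 6 on the horizontal axes), with 1 marker per array, ACG in red left of DLPFC in blue, markers by animal as in the plot of levels by animal, and lines through the means of 4 animals. PVALB keeps a like profile at a lower mean level in ACG, but was not called lower in layer 6. ANO5 and EPHA3 are low in layer 5 of ACG at 6.27 and 5.86 against 8.98 and 8.23 in DLPFC, and GRP meets at layer 5.

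The 2 areas were then set among the 10 cortical areas, with the 4 layers averaged per animal, as a description. ACG was the highest of the 10 areas for CALML4, DIAPH3, CA12, FOXO6, CD24, GRP, RADX, CCN3, AQP1, SOSTDC1, EFNB3, HTR7 and RBP4. CALML4 averaged 7.26 in ACG, 5.34 in DLPFC and 4.29 to 5.16 in the other 8 areas. DIAPH3 averaged 8.44 in ACG, 6.18 in DLPFC and 5.59 to 6.80 in the others. ACG was the lowest of the 10 for PVALB, GASK1B, LTB, ANLN, TMEM144, ANO5, SERTAD4, SERPINF1, EVI2A and MBP. PVALB averaged 6.07 in ACG, 7.54 in DLPFC, 7.16 in OFC and 9.90 in V1. The orbitofrontal area OFC, which shares the wide control set with DLPFC, had no called difference from DLPFC among these genes (lowest limma adjusted p = 0.587). OFC minus DLPFC was -0.18 for CALML4, -0.03 for DIAPH3 and -0.38 for PVALB, and was widest at -0.59 for GASK1B, -0.58 for EVI2A and -0.57 for ANLN. For EVI2A, OFC lay midway, with ACG minus OFC at -0.60.

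The control set was taken into account by subtracting from the difference of ACG against the 5 other narrow areas the difference of DLPFC against the 3 other wide areas. This measure contains the ACG minus DLPFC difference by which the called genes were chosen, so it is no independent test of them. The 2 sets hold different areas, so the shift removed cannot be told apart from differences between those areas. Of the 69 genes called in the mean, 24 were called in the same direction by this measure, 12 higher and 12 lower, out of 14 higher and 20 lower in all. CALML4 kept 1.93 ± 0.18, DIAPH3 1.92 ± 0.23, CA12 1.71 ± 0.27, CD24 1.66 ± 0.35, CCN3 1.27 ± 0.21 and AQP1 1.11 ± 0.22. Among the decreases GASK1B kept -1.76 ± 0.25, PVALB -1.70 ± 0.39, ANLN -1.56 ± 0.24 and TMEM144 -1.49 ± 0.16. FOXO6, GRP and RADX stood at 1.16, 1.15 and 1.14 and remained called, unlike with the poly-A covariate. SOSTDC1, BHLHE22, EFNB3, HTR7, MBP, CD53 and ANO5 were not called by this measure, at 0.74, 0.68, 0.78, 0.97, -0.97, -0.91 and -1.04. RBP4, which was not called in the mean either, stood at 0.99 ± 0.46 (limma adjusted p = 0.243). Of the 69 genes, 44 were called in the same direction against the 5 other narrow areas alone. That comparison reuses the ACG values, and its count over all genes is not given here.

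The beta-globin gene HBB and the receptor gene GPR25 followed the control sets. HBB had 6.31, 6.06, 6.00 and 5.77 in ACG of 01D150, 98C096, 99C018 and 018G, against 7.48, 7.38, 7.34 and 7.57 in DLPFC of 01D150, 98C096, 99C018 and CR5C1, a called difference of -1.27 ± 0.12. Its means were 7.29 to 7.44 in the 4 wide areas and 5.57 to 6.03 in the 6 narrow areas, ACG among them, and the difference with the set taken into account was 0.11 ± 0.23. For GPR25 the called difference of -1.18 ± 0.13 became 0.03 ± 0.26. TCEAL4, at 11.24 to 11.36 in the narrow areas and 9.63 to 10.64 in the wide ones, became 0.05 ± 0.42.

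**Figure D5:**
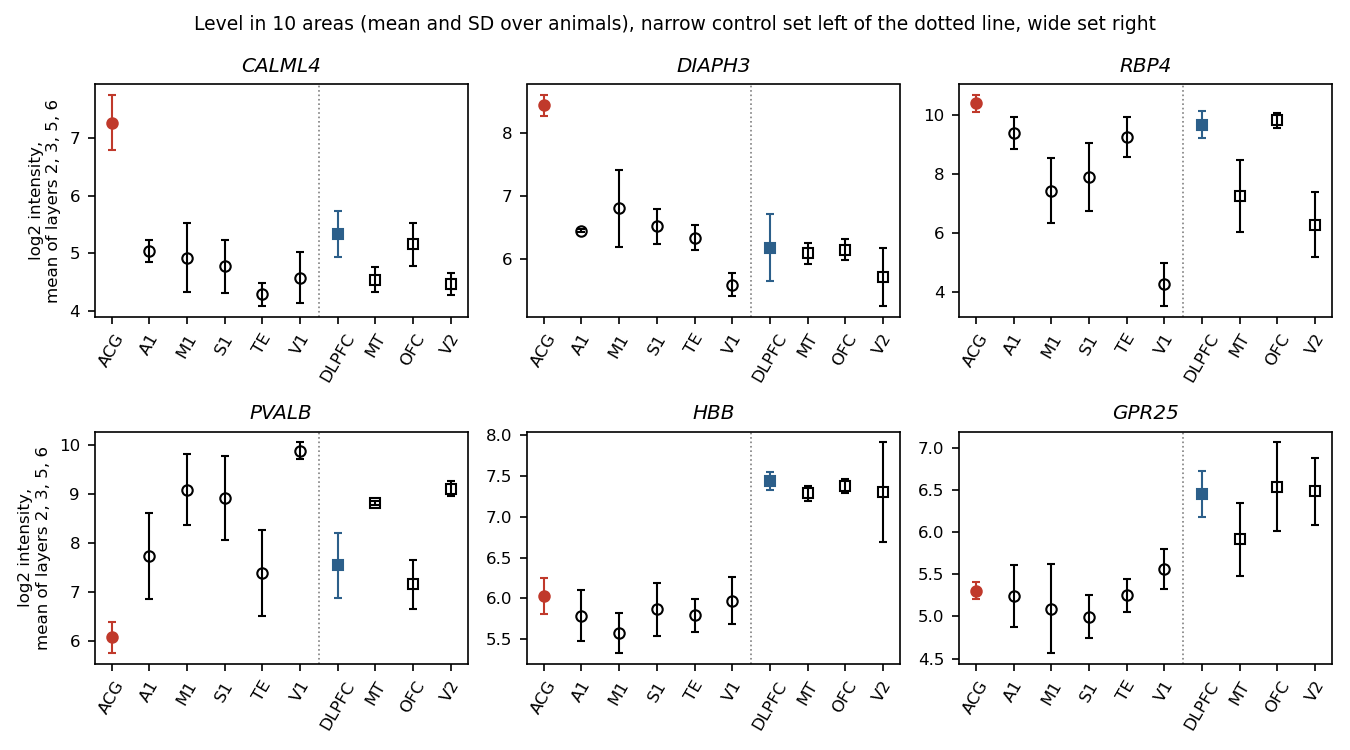
Level of 6 genes in 10 cortical areas (log2 intensity averaged over layers 2, 3, 5 and 6, mean and SD over 4 animals, 3 in A1 and M1), with ACG in red and DLPFC in blue, areas of the narrow control set as circles left of the dotted line and areas of the wide set as squares right of it. CALML4 and DIAPH3 are highest in ACG and PVALB is lowest there, while HBB lies at 5.57 to 6.03 in all narrow areas and at 7.29 to 7.44 in all wide areas.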

How the data were processed

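GeneChip Rhesus Macaque arrays of 32 laser-captured pieces were analysed. The authors applied RMA in Matlab to the arrays of 1 amplification batch at a time and normalized every probe set on common whole brain controls, per the file headers. The unit of the deposited intensities is log10, as those headers state, and the values were converted to log2. The design had assumed log2 values. Of 52865 probe sets, 24969 carried 1 symbol, 361 several and 27535 none in the platform annotation, and 24629 of the first were in the macaque RefSeq list, all with the same symbol. Each gene was represented by the brightest of its probe sets over 225 arrays (14133 genes). Testing was limited to the 10238 genes averaging above 4.81, the median of all probe sets, on the 32 arrays. Sequences and coordinates are not given here.

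Tables were read with data.table (version 1.17.8) and fitted with limma 3.58.1 under R 4.3.3. The mean of 4 layers was fitted on 8 animal-by-area means with the animal as a block. The layers were fitted on 32 arrays with the animal as a block and the animal-by-area piece as a random block (correlation 0.0424), and the variation among layers with animal-by-area as a fixed block. Pairing comes from animal codes. After removal of the area means, the areas of 01D150, 98C096 and 99C018 correlated at 0.265, 0.544 and 0.354 across genes, against a median of -0.121 for 13 other combinations. Removing the area means pushes the other combinations negative when the pairs are positive, so that median is no independent baseline. Replicates are animals. No 2 arrays were identical (highest correlation 0.987). The fits were also run on simulated data with an animal effect and independent noise per array. Those data held no animal-by-area effect and no shift of the control sets or poly-A controls, so they cannot show how the fits handle these.

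Members and gene lists (26) were chosen with earlier results of these data known. Named genes were the 12 largest called increases and decreases in the mean that had 1 sign in all 3 pairs (LOC symbols passed over, 1 increase not reported here), 4 each per layer, the 8 widest ranges among layers, up to 4 called members per list, and the markers RBP4, CALML4, FOXO6 and PVALB. Other genes are named as list members past the adjusted p alone, CUX2 and FEZF2 as checks of the layers. Alternatives covered the block, animals, filter, scaling, probe sets, moderation, the other areas, the control set and the poly-A controls. A further one left out 2 arrays standing apart and their ACG counterparts.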

Additional observations from a re-analysis of the deposited data

Results flagged for a closer look

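In 2 of 78 groups of 4 animals, 1 animal lay far from the other 3 by Dixon's criterion, which chance meets in about 1 of 20 groups. Both were ACG of female 98C096: TCEAL4 was lower there, at 10.94 against 11.32 to 11.39 in the other 3 animals, and MBP was higher, at 11.09 against 10.18 to 10.25. The difference between ACG and DLPFC varied among layers in 21 genes by limma's moderated F. The widest ranges of that difference over the 4 layers were 2.79 for ANO5, 2.76 for DACH1, 2.51 for EPHA3, 2.49 for WFDC1, 2.40 for GRP, 2.34 for TPBG, 2.18 for BHLHE22 and 1.77 for RTP2.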

How the results depend on the processing

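Of 1098 values for named genes under alternatives, 949 kept direction and call, 144 lost the call and 5 reversed: HBB 0.11 and GPR25 0.032 with the control set taken into account, and ANO5 0.31, CD53 0.13 and HTR7 -0.18 with the poly-A controls as a covariate. The 949 overstate how far calls held. In the mean, with the animal as a block, an unpaired animal adds nothing to the difference. Leaving out either unpaired animal, or keeping the 3 paired animals alone, therefore refitted the same pairs and could change little there. The 949 also hold 17 values for RBP4, which was not called in the mean to begin with. Counts of called genes (46 higher and 23 lower in the mean, 137, 97, 65 and 93 in layers 2, 3, 5 and 6, and 21 varying) changed most as follows. The adjusted p alone gave 652 and 317 in the mean and 674, 293, 230 and 410 in the layers. The poly-A covariate, which leaves 1 residual degree of freedom in the mean and was added after seeing the data, gave 8 and 1, with 77 in layer 2 and 39 in layer 6. The control set gave 14 higher. Averaging all probe sets of a gene gave 27 and 15, with 89 in layer 2 and 52 in layer 6. A separate fit per layer gave 27 in layer 2 and 0 in layer 6, where limma's unadjusted p was under 0.05 for 745 of 10238 genes. The 3 paired animals alone gave 41 in layer 5, 60 in layer 6 and 4 varying. The upper quartile filter gave 91 and 64 in layers 2 and 3, and median centring 6 varying. Without the 2 arrays standing apart and their ACG counterparts there were 89 in layer 2, 159 in layer 6 and 32 varying. Without the replicate block (no pairing by animal), the mean had 39 and 16, layer 6 had 49 and 4 genes varied. Leaving out 1 animal gave 41 to 52 higher and 16 to 34 lower in the mean, and 66 to 263, 68 to 101, 31 to 95 and 69 to 134 in layers 2, 3, 5 and 6, with 0 to 22 varying. The causes were not tested. The number of animals limits precision, and dim probe sets under the filter were not tested, among them 53 list genes, of which MET was called lower without the filter.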

Other observations

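Values outside the comparisons above concern 2 receptor genes under the intensity filter. MET, the hepatocyte growth factor receptor, differed by -1.20 ± 0.18 in the mean without the filter (limma adjusted p = 0.0105) and by -2.25 in layer 2. RORB, a nuclear receptor of layer 4 neurons, differed by -0.76 ± 0.14 in the mean (limma adjusted p = 0.0187) and by -1.16 in layer 5, and was not called in the mean.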
